A study of Mus musculus with 4 samples.

Results

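Src family kinases are tyrosine kinases held at the inner face of the cell membrane. Accessible chromatin at 7 of their genes, Src, Yes1, Fyn, Fgr, Lck, Lyn and Blk, and at Csk, the kinase that holds them inactive, was described in lymphoid tissue inducer (LTi) cells. LTi cells are group 3 innate lymphoid cells that induce the formation of lymph nodes and Peyer's patches. A region was taken as belonging to one of the 8 genes when the nearest end of a protein-coding gene, within 50 kb, was that gene's, or when its midpoint lay inside the gene. By this rule 21 of the 16584 regions in the table belonged to the 8 genes, 12 of them to Blk and Csk.

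The study measured chromatin by DNase-seq, in which DNA cut by the nuclease DNase I is sequenced so that reads pile up where chromatin is open. It compared LTi cells of Peyer's patches from C57BL/6 mice of 2 genotypes, with 2 libraries each: controls labelled Tcf7+/+, and mice in which floxed Tcf7 (Tcf7fl/fl), the gene of the transcription factor TCF-1, is combined with a Cre recombinase. The sources used here do not say whether the controls carry the Cre, nor give the age of the mice. Each library came from 300 sorted cells treated with 0.3 U of DNase I for 5 minutes, and the sort kept cells with CD127 and CCR6 and without lineage markers, KLRG1, NK1.1 and NKp46.

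The deposited table gives each region (an island, made of adjoining 200 bp windows) a read count on a peak side and one on a control side. No label or header ties either side to a genotype or a library, so the genotypes are not compared and there is no replicate error. The fold, as in the authors' deposited table, divides the peak-side reads by 0.345 times the control-side reads. Each fold carries a 95% counting interval (exact, Clopper-Pearson), which covers counting error only, and the counts carry no molecular identifiers that would separate PCR copies. Called islands are those with an FDR under 0.05 in the authors' deposited table. That FDR takes the control-side reads as known, so a called island can have an interval that reaches below 1. A low count cannot tell fewer cells with an open region from fewer cuts per cell.

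Src family kinases share a membrane anchor, an SH3 and an SH2 domain and a kinase domain. Csk phosphorylates a tyrosine in their tail, which folds the kinase into its inactive form, and phosphatases such as CD45 remove that phosphate. In lymphocytes the active kinases phosphorylate signalling chains of antigen and Fc receptors, which then recruit Syk and ZAP-70. Src, Yes1 and Fyn are expressed widely. Lck is known as the T cell and NK cell member, Blk as the B cell member that some interleukin-17-producing T cells share, and Lyn and Fgr as members of myeloid cells, with Lyn also in B cells.

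Start sites were taken from a RefSeq promoter table of build GRCm38.p6, the assembly that mm10 names, which holds 8 windows for 6 of the 8 genes, each from 250 bases before to 50 bases after a start. Lck and Csk have 2 windows each, and Src, Yes1, Fyn and Fgr have 1 each. Blk and Lyn are described by their gene ends alone. An island overlapped 5 of the 8 windows, against 45.5% of the windows of all protein-coding genes. The 5 were those of Yes1, Fyn, both Lck starts and the downstream Csk start. The windows of Src, Fgr and the upstream Csk start had none.

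The 250 bases before the start are shown for 6 windows, because they set starts with an island beside starts without one, within the same gene for Csk. Each is written 5′ to 3′ on the strand of the gene, with motif matches on either strand in capitals.

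Lck, upstream start (island present; chr4:129573642-129573891, minus strand): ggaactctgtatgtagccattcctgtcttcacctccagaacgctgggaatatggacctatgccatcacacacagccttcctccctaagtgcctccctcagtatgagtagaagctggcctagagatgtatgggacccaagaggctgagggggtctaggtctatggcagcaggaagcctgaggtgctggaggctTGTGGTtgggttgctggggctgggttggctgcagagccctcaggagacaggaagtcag
Lck, downstream start (island present; chr4:129558373-129558622, minus strand): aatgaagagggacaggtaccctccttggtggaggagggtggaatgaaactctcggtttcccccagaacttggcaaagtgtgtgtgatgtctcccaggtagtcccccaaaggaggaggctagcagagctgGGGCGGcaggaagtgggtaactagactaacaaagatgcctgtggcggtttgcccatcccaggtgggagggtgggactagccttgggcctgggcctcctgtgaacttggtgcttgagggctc
Csk, upstream start (no island; chr9:57653632-57653881, minus strand): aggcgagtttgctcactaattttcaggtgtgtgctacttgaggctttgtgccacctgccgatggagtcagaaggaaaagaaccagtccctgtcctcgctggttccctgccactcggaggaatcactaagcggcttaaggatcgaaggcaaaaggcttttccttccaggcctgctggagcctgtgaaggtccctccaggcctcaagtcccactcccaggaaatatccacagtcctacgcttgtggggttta
Csk, downstream start (island present; chr9:57645654-57645903, minus strand): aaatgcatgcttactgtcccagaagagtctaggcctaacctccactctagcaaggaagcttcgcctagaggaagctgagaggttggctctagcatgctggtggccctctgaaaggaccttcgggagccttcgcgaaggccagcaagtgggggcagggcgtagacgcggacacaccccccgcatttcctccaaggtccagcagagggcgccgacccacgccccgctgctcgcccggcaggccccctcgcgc
Fyn (island present; chr10:39369549-39369798, plus strand): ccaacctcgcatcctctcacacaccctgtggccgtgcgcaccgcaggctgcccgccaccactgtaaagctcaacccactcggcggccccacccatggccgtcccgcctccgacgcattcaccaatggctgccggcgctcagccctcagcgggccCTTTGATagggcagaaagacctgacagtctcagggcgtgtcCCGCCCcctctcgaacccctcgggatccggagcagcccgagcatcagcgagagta
Src (no island; chr2:157424043-157424292, plus strand): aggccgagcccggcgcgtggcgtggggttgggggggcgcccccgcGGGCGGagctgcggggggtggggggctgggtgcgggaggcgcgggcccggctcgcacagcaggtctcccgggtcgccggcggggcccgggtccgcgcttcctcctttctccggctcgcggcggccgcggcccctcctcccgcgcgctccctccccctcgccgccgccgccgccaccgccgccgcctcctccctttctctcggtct

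The motifs searched were the TCF/LEF core CTTTGAT or CTTTGAA, RUNX (TGTGGT), ETS (CCGGAAG), AP-1 (TGANTCA), the GC box (GGGCGG), the ROR element core (AGGTCA) and the TATA box (TATAAA), on both strands. No capitals were shared between motifs in the windows shown. The Fyn window held the only TCF/LEF match among the 8 windows, 96 to 90 bases before the start, and 6.73% of the 21263 windows of all protein-coding genes held one. It also had a GC box 55 to 50 bases before the start, which 42.6% of all windows held. The upstream Lck window had a RUNX match 58 to 53 bases before the start (12.4% of all windows), and the downstream one a GC box 121 to 116 bases before it. Yes1, which is not shown, had a RUNX match, an ETS match (8.98% of all windows) and 2 GC boxes. The Src window had 1 GC box, and the windows of Fgr and of both Csk starts matched none of the 7 motifs. No window of the 6 genes matched AP-1, the ROR element or the TATA box, which 6.13%, 12.8% and 11.6% of all windows held. Among the 9669 windows with an island, those shares were 3.26%, 9.49% and 5.06%. Of the same windows, 4.92% held a TCF/LEF match, 9.59% a RUNX match, 16.2% an ETS match and 64.8% a GC box. A match describes the letters and does not show a bound site.

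Base composition of these windows did not follow the presence of an island in one direction. Over all protein-coding genes, windows with an island had a median GC content of 61.6% and 18 CG dinucleotides in 250 bases, and windows without had 49.6% and 3. The Src window, without an island, was the richest of the 8, with 82.8% GC and 40 CG dinucleotides. Yes1 had 77.2% and 37, and Fyn had 67.2% and 21. Both Lck windows had an island although they were poor in CG, with 56.4% and 1 at the upstream start and 58.0% and 3 at the downstream start. Csk had 54.0% and 7 at the upstream start, without an island, and 64.0% and 16 at the downstream start, with one. Fgr had 64.4% and 9.

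Each of the 8 genes had at least 1 island, where 11400 of 21887 protein-coding genes (52.1%) had one. All 8 were longer, at 25.3 to 196 kb, than the median length of genes with an island, 24.1 kb. They were also chosen with earlier results of these data known, so this count is a description. The number of islands ran from 1 at Src, Yes1, Fyn and Fgr through 2 at Lyn and 3 at Lck to 6 at Blk and Csk. In all, 367 peak-side and 555 control-side reads fell in the 21 islands. Their pooled fold was 1.92 (95% counting interval 1.68 to 2.19), beside 1.91 for all islands, and their median fold was 1.93, beside 2.01. By the FDR of the authors' deposited table, 14 were called (66.7%, exact binomial interval 43.0 to 85.4), where 82.3% of all islands were called, so the interval reaches past that background. The counting interval of 5 of the 14 reached 1 or below. A fold over 2 was found at 10 of the 21, beside 50.4% of all islands. The counting interval of every one of the 21 islands held the median fold of all islands. These levels rest on the factor of 0.345. With a factor that equalises the reads in all islands, every fold shifted by -0.93 on the log2 scale, the pooled fold was 1.00 (0.877 to 1.15), 10 of the 21 folds were under 1 and 2 islands were called, beside 9.19% of all islands.

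**Figure D1:**
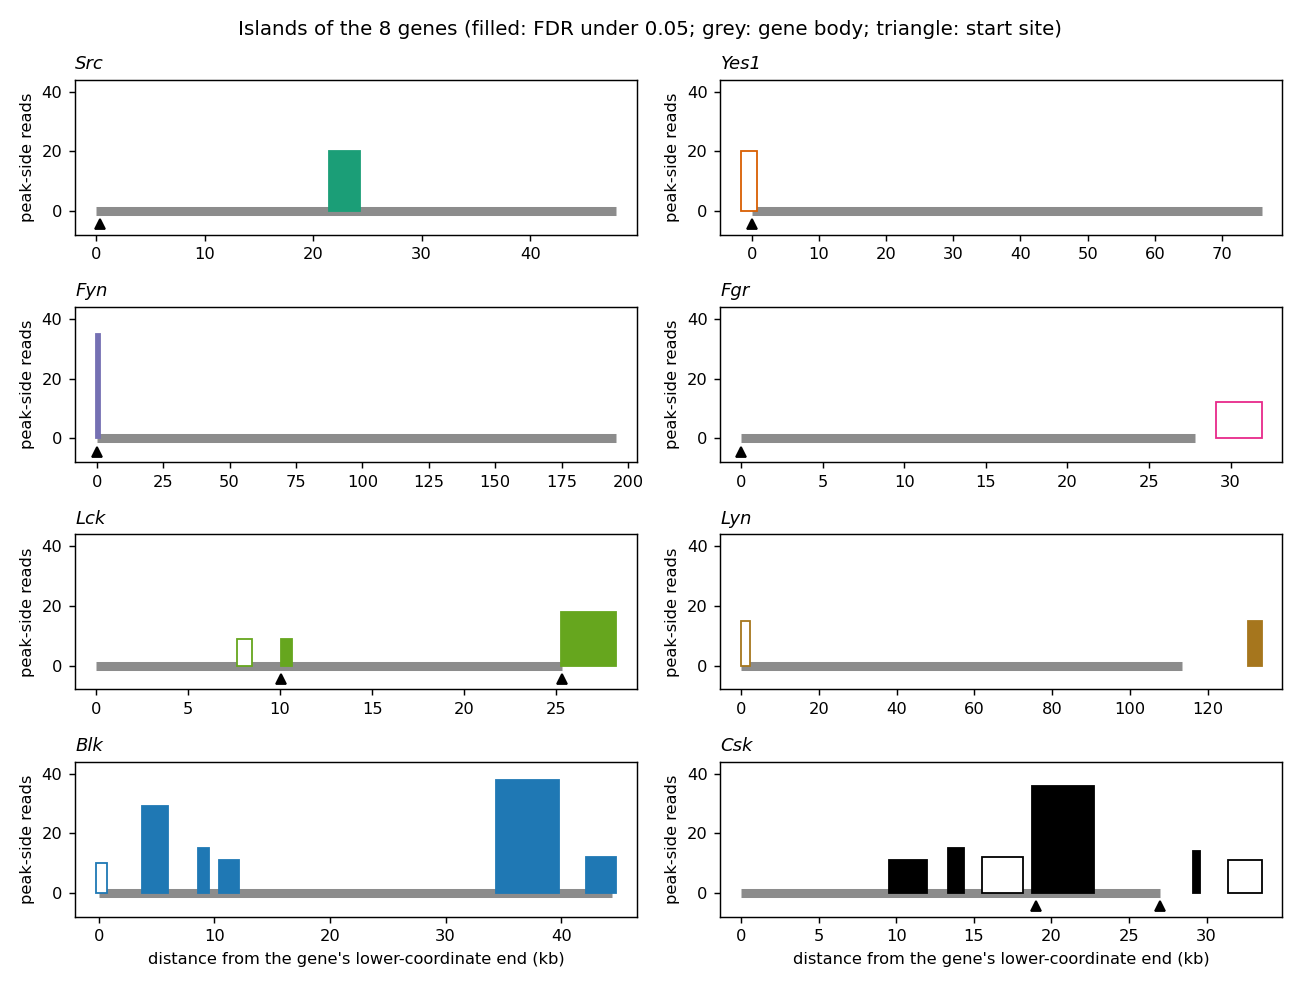
Islands of the 8 genes, with distance from the gene's lower-coordinate end in kb on the x axis (a scale of its own in each panel) and peak-side reads per island on the y axis. Bars span each island and are filled where the authors' deposited FDR is under 0.05, the grey line is the gene body, and triangles are RefSeq start sites where the table gives them. Fyn has a single island at its start, with 35 reads, while Blk and Csk have 6 islands each.

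Src, the founding member of the family, lies on chromosome 2 (157423906 to 157471838). Its only island lay inside the gene (157445401 to 157448200), 21.1 kb from the annotated start, with 20 peak-side and 25 control-side reads. The fold was 2.32 (1.22 to 4.35), and the island was called. It was also the member island farthest from a gene end, at 21.5 kb, and no island past 50 kb had one of the 8 genes as its nearest.

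Yes1, a close and widely expressed relative of Src, lies on chromosome 5 (32611171 to 32687066). Its only island spanned the start (32609601 to 32612000) and also overlapped the protein-coding gene Gm10461, so reads there cannot be given to one of the 2 genes. With 20 peak-side and 40 control-side reads, its fold was 1.45 (0.803 to 2.54). With a deposited FDR of 0.0511 it fell just outside the call, and the Csk island at 0.0490 fell just inside.

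Fyn, which is expressed widely and also signals from the T cell receptor, lies on chromosome 10 (39369743 to 39565381). It is the longest of the 8 genes, at 196 kb, and had an island only at its start (39369401 to 39371000), where it overlapped the non-coding gene Gm31616. That island had 35 and 41 reads. Its fold was 2.48 (1.53 to 3.98), called at a deposited FDR of 7.19e-06. At 21.9 peak-side reads per kb it was denser than 86.6% of all islands. Of the 1017 protein-coding genes at least as long as Fyn, 282 had 1 island, 269 had 2 or more and 466 had none.

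Fgr, a member best known from neutrophils and other myeloid cells, lies on chromosome 4 (132974095 to 133001893). No island lay at its start. The only island assigned to it lay 1.31 kb past its far end (133003201 to 133006000), overlapping the non-coding gene Gm36599, 5.26 kb from the protein-coding gene Ahdc1. Its 12 and 25 reads gave an uncalled island with a fold of 1.39 (0.637 to 2.88). At 4.29 peak-side reads per kb, only 4.84% of all islands were sparser.

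Lck, the kinase that starts T cell receptor signalling, is known to be transcribed from a distal and a proximal promoter. It lies on chromosome 4 (129548344 to 129573641), and an island was present at both RefSeq starts. The island at the upstream start (129573601 to 129576600) had 18 and 27 reads, a fold of 1.93 (1.00 to 3.64) and a call, and it ended 0.215 kb from the gene Fam167b. The island in the downstream window had its nearer edge 29 bases before that start (129558401 to 129559000). It had 9 and 4 reads, a fold of 6.53 (1.82 to 29.0) and a call, and 98.1% of all islands had a lower fold. Its peak-side count was near the floor, since only 1.01% of all islands had fewer peak-side reads and none had fewer than 8. The third island, further inside the gene (129556001 to 129556800), had 9 and 20 reads, a fold of 1.31 with an interval from 0.523 upward, and no call. The fold at the downstream start was 3.38 times that at the upstream start (0.776 to 17.0), a ratio that 9 and 4 reads leave wide.

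Lyn, a kinase of B cells and myeloid cells that both activates and restrains their receptors, lies on chromosome 4 (3678068 to 3791612). It had 2 islands with the same number of peak-side reads. The one over its lower-coordinate end (3678001 to 3680200), which also overlaps the non-coding gene Gm42250, had 15 and 36 reads, a fold of 1.21 (0.615 to 2.26) and no call. The other lay 16.8 kb past the opposite end (3808401 to 3812000), between genes and 19.6 kb from Rps20, with 15 and 10 reads, a fold of 4.35 (1.83 to 10.8) and a call. It was spread over 3600 bp, at 4.17 peak-side reads per kb. The control side, not the peak side, thus separated the 2 islands, and their folds differed 3.60 times (1.18 to 11.1).

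Blk, named for B lymphocytes, lies on chromosome 14 (63372837 to 63417187) and had 6 islands, all of them in or across its gene body, with 115 and 141 reads. From the lower-coordinate end, the first (63372601 to 63373600), over that end and the non-coding gene Gm36165, had 10 and 25 reads, a fold of 1.16 (0.497 to 2.50) and no call. The other 5 were called. The second (63376601 to 63378800) had nearly equal reads on both sides, 29 and 27, and so a fold of 3.12 (1.78 to 5.47).

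The next pair of Blk islands lay close together (63381401 to 63382400 and 63383201 to 63385000). They had 15 and 21 reads with a fold of 2.07 (0.994 to 4.22), and 11 and 14 reads with a fold of 2.28 (0.936 to 5.40). The fifth island (63407201 to 63412600) was the widest of the 21 islands, at 5400 bp, and held the most peak-side reads, with 38 against 44 and a fold of 2.50 (1.58 to 3.96). The sixth, over the higher-coordinate end (63415001 to 63417600), had 12 and 10 reads, for a fold of 3.48 (1.38 to 8.99). The islands thus formed one group near each end of the gene. The nearest other protein-coding gene was Fam167a, 18.8 kb from the sixth island and 62.8 kb from the first.

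Csk, the inhibitory kinase of the others, lies on chromosome 9 (57626646 to 57653631) and had 6 islands with 99 and 186 reads. The annotated upstream start, at the end of the gene, had no island and lay 2.17 kb from the nearest one. The downstream start lay in an island of 4000 bp (57645401 to 57649400) with 36 and 73 reads, a fold of 1.43 (0.932 to 2.16) and a call. Inside the gene, 3 further islands had 11 and 12 reads (57636201 to 57638600, fold 2.66, 1.06 to 6.58, called), 15 and 25 reads (57640001 to 57641000, fold 1.74, 0.853 to 3.43, called) and 12 and 29 reads (57642201 to 57644800, fold 1.20, 0.558 to 2.43, not called).

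Beyond the upstream start of Csk, 2 islands lay between genes, with Cyp1a2 as the next protein-coding gene at 20.7 and 16.7 kb. The nearer to Csk (57655801 to 57656200) was called, with 14 and 26 reads in only 400 bp and a fold of 1.56 (0.754 to 3.10). At 35.0 peak-side reads per kb it was the densest of the 21 islands, and 96.3% of all islands were sparser. The other (57658001 to 57660200) had 11 and 21 reads, a fold of 1.52 (0.662 to 3.30) and no call. All but 1 of the 6 Csk folds were below the median of all islands, although each interval held it.

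**Figure D2:**
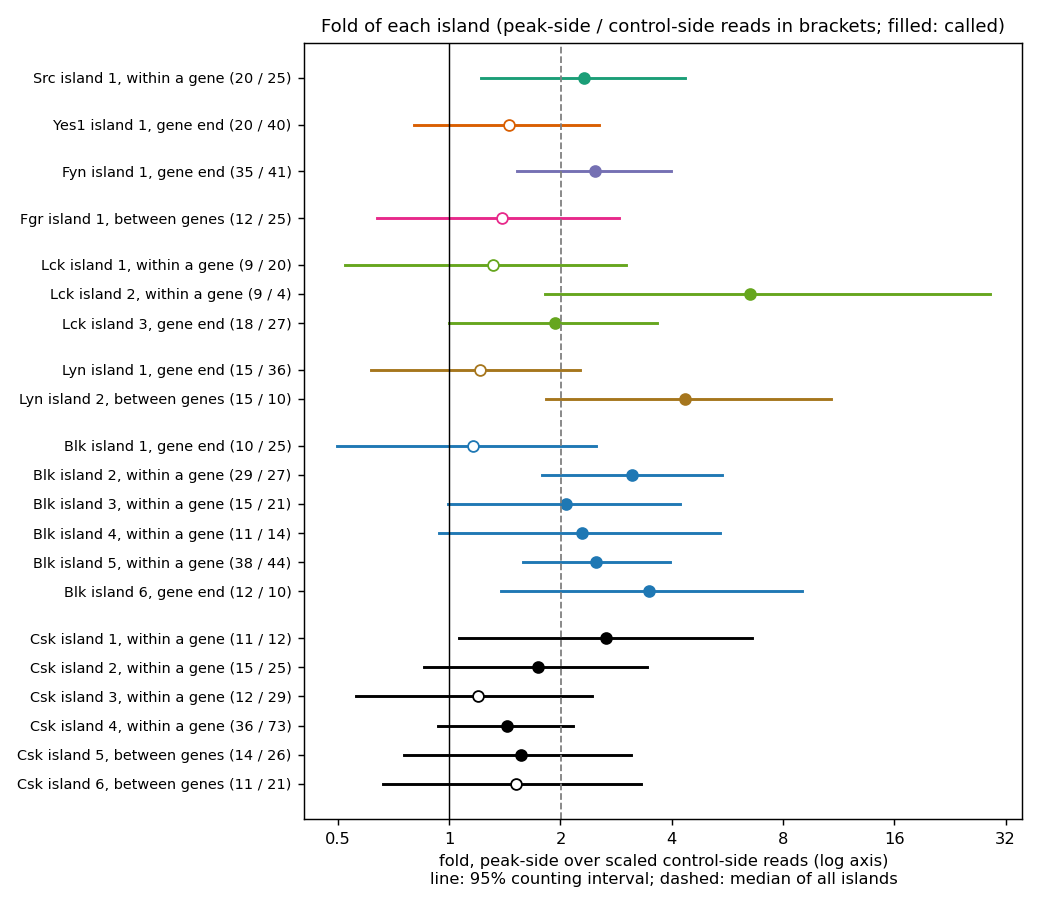
Fold of each of the 21 islands on a log axis, with its 95% counting interval as a line and islands ordered by coordinate within each gene. Points are filled where the island was called, the solid line marks a fold of 1 and the dashed line the median fold of all islands, 2.01, which every interval crosses.

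Having 6 islands was uncommon. Only 109 protein-coding genes (0.498%) had at least as many, and their median length was 114 kb. Blk and Csk are shorter, at 44.4 and 27.0 kb, and 21 of the 109 genes were no longer than Blk and 13 no longer than Csk. Per 10 kb of gene, Csk had 2.22 islands, Blk 1.35, Lck 1.19, Fgr 0.360, Src 0.209, Lyn 0.176, Yes1 0.132 and Fyn 0.0511. The number of islands is not a measure of reads: the single island of Fyn held 35 peak-side reads and the 3 islands of Lck together held 36.

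The 8 genes could not be ordered by fold beyond counting error. From the highest, the pooled folds were 2.48 (1.53 to 3.98) for Fyn, 2.37 (1.83 to 3.05) for Blk, 2.32 (1.22 to 4.35) for Src, 2.05 (1.30 to 3.20) for Lck, 1.89 (1.15 to 3.06) for Lyn, 1.54 (1.20 to 1.98) for Csk, 1.45 (0.803 to 2.54) for Yes1 and 1.39 (0.637 to 2.88) for Fgr. Neighbours in this order overlapped widely. A ratio between 2 genes does not depend on the factor on the control side. Among the 28 pairs of genes, the 95% interval of the ratio left out 1 only for Blk over Csk, at 1.53 (1.07 to 2.20). With an interval widened for 28 pairs it reached 0.870 to 2.71, so no pair differed beyond that. Relative to the pooled fold of all islands, Blk stood at 1.24 (0.959 to 1.59) and Csk at 0.808 (0.626 to 1.04), and the interval of each of the 8 genes held 1. Among 34 pairs of islands of the same gene, the 95% interval left out 1 for 3, which lay in Lck, Lyn and Blk, and for none when widened for 34 pairs.

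**Figure D3:**
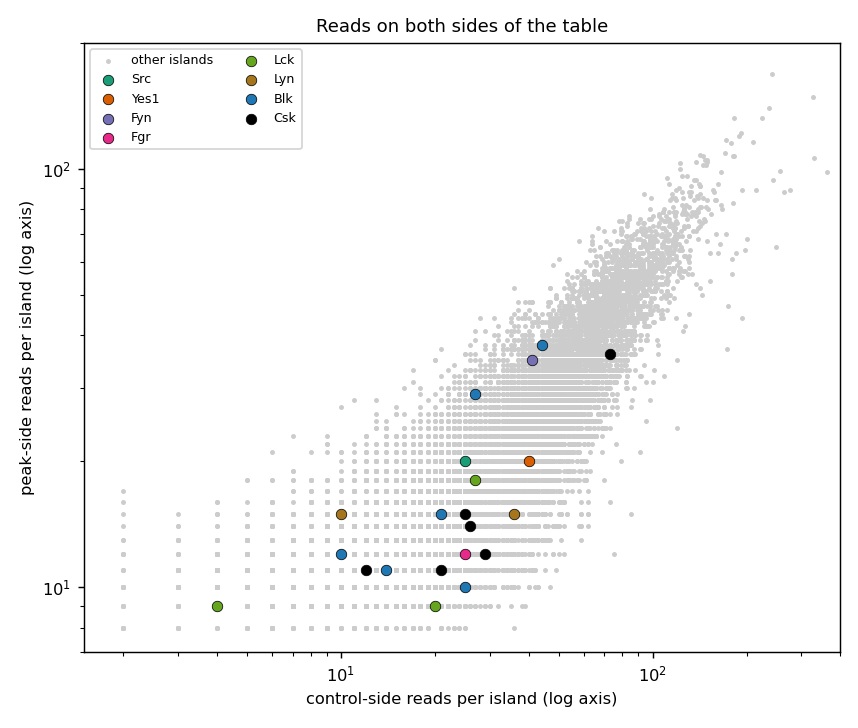
Control-side reads (x axis) and peak-side reads (y axis) per island, both on log axes, with the 21 islands in colour and other islands in grey; 48 islands beyond the axes, none of them of the 8 genes, are not drawn. The coloured points lie inside the cloud of other islands, from 9 to 38 peak-side reads.

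The place of an island was also used to give it to a gene, so the places of the 21 islands are a description. Within 1 kb of a gene end lay 6 of the 21 (28.6%, exact binomial interval 11.3 to 52.2), beside 55.7% of all islands. Elsewhere within a gene lay 11 (52.4%, 29.8 to 74.3), beside 24.3%, and between genes lay 4 (19.0%), beside 20.0%. Of the 11, 8 belonged to Blk and Csk. Among the 9 islands of the other 6 genes, 3 lay elsewhere within a gene (33.3%, 7.49 to 70.1) and 4 at a gene end (44.4%, 13.7 to 78.8), and both intervals hold the share of all islands. Islands of the same gene share a locus and are not independent, so these intervals are too narrow. By reads per length, the median island of the 8 genes had 7.14 peak-side reads per kb, beside 10.6 for all islands, and 14 of the 21 were sparser than the median island. At gene ends the medians were 7.58 and 12.3.

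Related kinases of epithelia (Frk, Srms and Ptk6) and the Csk-like kinase Matk had no island. Since no island in the table had fewer than 8 peak-side reads, weaker accessibility at these genes would not be listed.

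Of 12 regulators of Src family kinases, 11 had an island, where 52.1% of all protein-coding genes had one. Of their 20 islands 18 were called (90.0%), near the 82.3% of all islands. The pooled fold of the list was 2.08 (1.83 to 2.36) and its median fold 2.09. Cblb and Cbl, ubiquitin ligases that restrain tyrosine kinase signalling, had 67 and 81 reads (pooled fold 2.40, 1.71 to 3.36) and 47 and 80 reads (1.70, 1.16 to 2.47). The phosphatase genes Ptpn12 and Ptpre had 47 and 77 reads (1.77, 1.20 to 2.58) and 45 and 75 reads (1.74, 1.18 to 2.55). The adaptor gene Lime1 was the only one of the 12 without an island.

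Of 22 genes for kinases, adaptors and substrates that act downstream, 16 had an island, beside 52.1% of all genes. Of their 40 islands 34 were called (85.0%), beside 82.3% of all islands, and the list had a median fold of 2.26 and pooled to 2.00 (1.81 to 2.21). Plcg2, a phospholipase C, had 7 islands with 110 and 138 reads (2.31, 1.78 to 2.99), all called. Ptk2b, a kinase related to focal adhesion kinase, had 6 islands with 72 and 121 reads (1.73, 1.27 to 2.33), 4 of them called. Vav1, a guanine nucleotide exchange factor, had 3 islands, 1 of them called, with 64 and 128 reads (1.45, 1.06 to 1.97). Tec, the founding Tec kinase, had 3 islands, all called, with 52 and 69 reads (2.19, 1.50 to 3.18). Btk, Lat, Lcp2, Blnk, Sh2d1a and Sh2d2a had no island.

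Of 18 receptors and signalling chains that these kinases bind or phosphorylate, 9 had an island, a share near the 52.1% of all genes. Of their 14 islands 13 were called (92.9%), beside 82.3% of all islands, and the list had a median fold of 1.88 and pooled to 2.06 (1.74 to 2.44). Il2rb, a chain of the interleukin-2 and interleukin-15 receptors, had 67 and 93 reads (2.09, 1.50 to 2.89). Cd247, the zeta chain, had 50 and 84 (1.73, 1.19 to 2.48), Fcer1g, the Fc receptor gamma chain, had 31 and 39 (2.31, 1.39 to 3.79), and Cd2 had 22 and 36 (1.77, 0.993 to 3.10). Cd4 and Cd8a, whose products carry Lck, were among the 9 without an island.

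**Figure D4:**
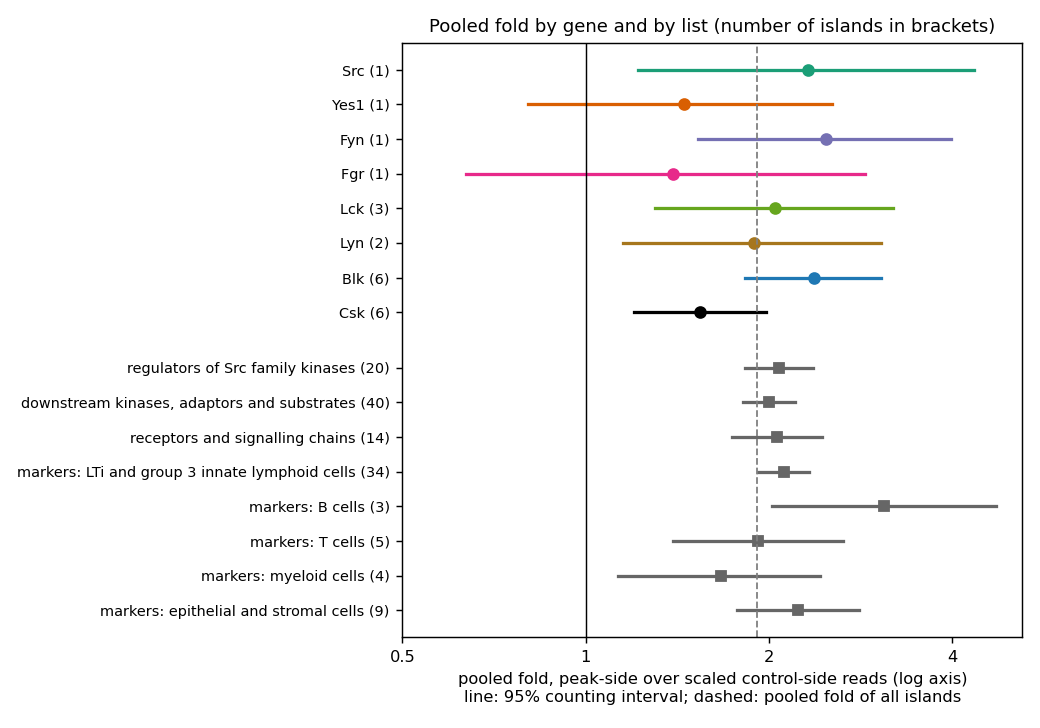
Pooled fold, on a log axis, of each of the 8 genes (circles) and of each gene list with islands at more than 1 gene (squares), with 95% counting intervals as lines and the number of islands in brackets. The dashed line marks the pooled fold of all islands, 1.91, which lies inside the interval of each of the 8 genes.

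Blk, Lck, Lyn and Fgr are best known from B cells, T cells and myeloid cells, which Peyer's patches also hold, so markers of those cells were set beside them. Several of these markers, among them Cd247 and Cd79b, are also in the receptor list. As background for the counts that follow, 52.1% of all protein-coding genes had an island and 82.3% of all islands were called. Of 12 markers of LTi and other group 3 innate lymphoid cells, 11 had an island, with 31 of 34 islands called, 756 and 1036 reads, pooling to a fold of 2.12 (1.92 to 2.33), and Ccr6, whose product was in the sort gate, had none. Of 9 B cell markers, Pax5, Cd79b and Ebf1 had 1 island each, all 3 called, with 49 and 46 reads in all and a pooled fold of 3.09 (2.02 to 4.72), while Ms4a1, Cd79a, Cr2, Fcer2a and Cd22 were among the 6 with none. Blk alone had 115 and 141 reads. Of 9 T cell markers, Cd247 and Cd3d had 5 islands, 4 of them called, with 67 and 101 reads in all and a pooled fold of 1.92 (1.39 to 2.65), and Cd3e, Cd3g, Cd8a, Cd5, Cd28, Bcl11b and Themis had none. Lck had 36 and 51. Of 9 myeloid markers, Spi1, Cd14 and Fcgr1 had 4 islands, 1 of them called, with 46 and 80 reads in all and a pooled fold of 1.67 (1.13 to 2.43), and Csf1r, Itgam, Lyz2, Adgre1, Mpo and Itgax had none. Lyn and Fgr together had 3 islands. Of 6 epithelial and stromal markers, 5 had an island, with 7 of 9 islands called, 133 and 173 reads, pooling to a fold of 2.23 (1.77 to 2.81), and Vil1 had none. An island lay in a promoter window of 8 of the 10 LTi markers in the promoter table, where 8190 of 17492 protein-coding genes had one. The same held for 0 of the 6 B cell, 0 of the 8 T cell, 0 of the 5 myeloid and 0 of the 3 epithelial and stromal markers. Among the kinases, Yes1, Fyn, Lck and Csk had an island in a promoter window. The part of such cells in the islands of Blk, Lck, Lyn and Fgr was not tested.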

How the data were processed

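The series holds DNase-seq of 4 libraries (2 control, 2 Tcf7-KO), and 1 table was analysed, whose 2 sides nothing ties to any of them. The submitters' processing notes name SICER 2.0, Bowtie2 2.4.2 and build mm10. Per the file headers, each island has deposited read counts on a peak side and a control side, a p-value, a fold and an FDR. The deposited fold is a ratio of unnormalized counts with the control side multiplied by 0.345, and 0.25 reads stand in for 0. All 16584 deposited folds, p-values (Poisson, upper tail) and FDR values (within 0.01) were recomputed. Whether replicates were pooled is not given in the sources used here.

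Islands were joined to 21900 RefSeq protein-coding genes of GRCm38.p6, with 1-based coordinates, by the distance from the island's edge to a gene end. All 8 genes and all list genes matched by symbol. Sequence strand was checked on 717 pairs of overlapping windows, all identical. Every island of the 8 genes is named, and in each list up to 4 genes with the most peak-side reads. The members and lists were chosen with earlier results of these data known. Python 3.11.15, pandas 2.3.3 and scipy 1.17.1 were used, and intervals were tested on simulated reads. Folds have no replicate error, and the library totals are unknown. The edgeR comparison of genotypes was not run, since no column is tied to a library. Some genes of the lists are not reported here by name. Alternatives are given in the closing section.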

Additional observations from a re-analysis of the deposited data

How the results depend on the processing

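The factor on the control side set the level of every fold. With a factor from the reads in all islands, or from the median ratio, every fold shifted by -0.93 or -1.01 on the log2 scale, which is built into both scalings. In place of 14 called islands of the 8 genes, 2 were called under each, 1 of Lck and 1 of Lyn, beside 9.19% or 6.61% of all islands. The pooled fold went from 1.92 to 1.00 or 0.955, that of Lyn to 0.990 or 0.942 and that of Csk to 0.808 or 0.769 (0.596 to 0.986, the only one of the 8 genes whose interval then left out 1), and 10 or 11 of the 21 islands had a fold under 1 in place of none. Only 6 islands lay within 1 kb of a gene end, and only 6 had at least 20 peak-side reads, in place of 21. The other 13 alternatives for counts, pooled fold, reads per kb and gene-end share moved them by less than 1.5 times or within the counting interval, those without Blk or Csk having been chosen after seeing the data. For single genes, 18 alternatives stayed within the counting interval, 11 moved further, 10 of these under the scalings, and 4 reversed, as given for Lyn and Csk. Under the scalings Yes1 also fell below 1, to 0.759 or 0.722, and Fgr to 0.728 or 0.693. Their intervals already held 1 with the factor of 0.345. Fgr, Lck and Lyn had no island with 20 reads. Without its island at the gene end, Lyn had a fold of 4.35 in place of 1.89. The comparison of genotypes, leaving out replicates and DESeq2 were not run. No paired analysis was possible because neither side of the table names a library. Counts of 9 to 38 peak-side reads per island limit the precision of each fold.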

Other observations

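The floxed gene Tcf7, on chromosome 11, had 6 islands whose 102 and 110 reads pooled to a fold of 2.69 (95% counting interval 2.03 to 3.55), with 5 of them called. These values do not assign either side of the table to a genotype.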
